A study of Saccharomyces cerevisiae with 2 samples.

Results

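Predicted G-quadruplex (G4) elements were taken from the reference sequence alone. Each element has 4 or more GGG tracts on 1 strand, separated by loops of between 1 and 25 bases, and overlapping hits on a strand were merged. The 16 nuclear chromosomes of the R64 (sacCer3) assembly held 635 elements, 299 with the G tracts on the forward strand and 336 on the reverse strand. Every 1 of them entered the counts below, and no peak was used to choose them. They were set against 2394 segments with exactly 3 tracts under the same loop rule, which are the nearest sequences that miss it, and against all 241418 tiles of 50 bp on these chromosomes.

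The study mapped the binding sites of the nuclear protein Vid22 in budding yeast by ChIP-seq. Chromatin of formaldehyde-fixed BY4741-type cells that carry VID22 with a C-terminal 13Myc tag was precipitated with an antibody to Myc, and a wild type (no tag) strain was the negative control. The labels of the control name no antibody, while the methods and the names of the peaks describe an immunoprecipitation of both strains. DNA of 2 ChIP experiments was pooled for each library, so each of the 2 conditions has 1 library, there are no replicates, and the tests below compare classes of elements within 1 peak list. The list holds 811 peaks, of which the 445 with a -log10 q-value of at least 9 at the summit were used. This is how the false discovery rate threshold of the methods was read. It can also be read as at least 10, and the 1 comparison whose call changed under that reading is given with its value. An element counted as overlapped when it shared at least 1 bp with such a peak. The number of reads is not given in the list, so the depth behind a peak is unknown and intervals on shares cover the counting of elements only.

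In a G-quadruplex, 4 guanines bond into a flat ring and several such rings stack, so a strand with 4 runs of G can fold on itself. Such sequences are common at telomeres, whose G-rich strand ends each chromosome, and in promoters. In a gene the G tracts may lie on the coding strand, which has the sequence of the mRNA, or on the template strand, which is read by RNA polymerase. TAGGG is the core of the site recognized by Tbf1, an essential factor that binds subtelomeres and promoters, and it contains a GGG tract itself.

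Elements that carry the comparisons below are printed from the RefSeq R64 sequence, 5′ to 3′ on the strand of the G tracts, with the G runs in capitals. A run of 7 G, as in the TBF1 open reading frame, counts as 2 tracts with a loop of 1 G. The first set lies in promoters, at or next to the summit of a strong peak, and shows elements of 4 or 5 tracts with long loops. It comprises the elements in front of SKN7, a stress-response transcription factor (chrVIII:512269-512329, forward strand), TBF1 itself (chrXVI:308412-308465, forward strand), TIP20, a factor of transport from the Golgi to the endoplasmic reticulum (chrVII:229994-230051, forward strand), ACT1, which encodes actin (chrVI:55098-55163, forward strand), and PRB1, the vacuolar proteinase B (chrV:42255-42287, reverse strand).
SKN7: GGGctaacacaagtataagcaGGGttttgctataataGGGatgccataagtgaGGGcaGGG
TBF1 promoter: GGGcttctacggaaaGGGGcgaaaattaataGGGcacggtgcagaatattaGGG
TIP20: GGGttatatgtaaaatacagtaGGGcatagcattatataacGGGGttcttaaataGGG
ACT1: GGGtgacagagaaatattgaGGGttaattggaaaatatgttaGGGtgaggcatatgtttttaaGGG
PRB1: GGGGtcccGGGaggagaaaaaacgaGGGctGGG

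The second set lies inside genes under strong peaks whose summits are elsewhere. These are the elements in the open reading frames of TBF1 (chrXVI:307882-307900, forward strand, template strand of the gene), FRT2, a membrane protein of the endoplasmic reticulum (chrI:93386-93425, reverse strand, template strand), POX1, the acyl-CoA oxidase of peroxisomes (chrVII:108586-108636, forward strand, coding strand), and POM34, a nuclear pore protein (chrXII:179557-179613, reverse strand, coding strand).
TBF1 open reading frame: GGGGGGGaGGGGagttGGG
FRT2: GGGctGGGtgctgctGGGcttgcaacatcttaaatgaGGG
POX1: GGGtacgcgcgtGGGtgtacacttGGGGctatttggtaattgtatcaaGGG
POM34: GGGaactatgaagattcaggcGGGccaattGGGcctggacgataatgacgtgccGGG

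The third set has many tracts: an element of 21 tracts in the right telomeric region of chromosome VIII (chrVIII:556747-556974, forward strand), 1 of 7 tracts in that of chromosome XII (chrXII:1065100-1065146, forward strand), and 1 of 12 tracts in front of GPD1, the glycerol 3-phosphate dehydrogenase of the osmotic stress response (chrIV:411417-411578, reverse strand).
Telomeric region VIII right: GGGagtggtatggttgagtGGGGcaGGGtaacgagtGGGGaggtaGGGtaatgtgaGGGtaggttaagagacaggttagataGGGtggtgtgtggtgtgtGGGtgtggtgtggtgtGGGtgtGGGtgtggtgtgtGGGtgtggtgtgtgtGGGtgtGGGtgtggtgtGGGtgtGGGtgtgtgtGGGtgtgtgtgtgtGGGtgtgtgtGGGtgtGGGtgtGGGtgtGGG
Telomeric region XII right: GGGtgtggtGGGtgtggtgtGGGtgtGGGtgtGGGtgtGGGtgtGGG
GPD1: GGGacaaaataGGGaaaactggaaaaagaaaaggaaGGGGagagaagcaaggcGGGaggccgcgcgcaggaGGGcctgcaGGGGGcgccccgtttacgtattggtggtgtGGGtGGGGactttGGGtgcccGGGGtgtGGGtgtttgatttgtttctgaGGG

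The last set has loops of at most 7 bases and no overlapping peak. The 3 shown come first by position among the 14 such elements, all of 4 tracts, and some of the others have shorter loops. It holds the elements in UME6, a repressor of meiotic genes (chrIV:866792-866812, reverse strand, coding strand of the gene), near ATO3, an ammonium exporter (chrIV:1242546-1242565, forward strand, between genes), and in PDR15, a multidrug transporter (chrIV:1281399-1281428, reverse strand, template strand).
UME6: GGGcgcGGGcacGGGctcGGG
ATO3: GGGGaGGGGaaGGGGaGGGG
PDR15: GGGccagcaGGGatgtattGGGcacaaGGG

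Vid22 peaks overlapped 113 of the 635 elements, or 17.8% (95% Wilson interval 15.0% to 20.96%), against 5.06% of the 50 bp tiles. The 113 elements lay under 84 peaks, 18.9% of the 445 used. Of these peaks 59 held 1 element, 21 held 2 and 4 held 3, so elements under the same peak are not independent. A further 12 elements met only a weaker peak of the list. Element length ran from 17 to 478 bp (median 54), and the number of tracts from 4 to 41. Elements on chromosome I had the highest share, 4 of 12, and those on chromosome XVI the lowest, 3 of 36. These counts are small and have no tile share beside them. On chromosome I they include 2 overlapped elements in the left telomeric region and 1 in the right. None of the 3 left and 1 right telomeric elements of chromosome XVI was overlapped. In the left and right telomeric regions of chromosome I, 95.01% and 93.94% of positions start a unique 50-mer. In those of chromosome XVI the values are 0.6922% and 7.729%. Reads that aligned equally well to several places were discarded, so repeated sequence can carry few reads. The part of this in the difference between the 2 chromosomes was not tested.

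The overlapped elements were found mostly in promoters and in telomeric regions, and far less in genes. An element that overlapped an annotated telomeric region was placed there. Every other element was placed by its midpoint in a protein-coding gene, a promoter (500 bp upstream of a protein-coding gene start) or the remaining intergenic sequence. In telomeric regions 42 of 80 elements were overlapped (52.5%, interval 41.7% to 63.1%), against 14.7% of the tiles there. The telomeric elements had a median length of 79.5 bp, longer than a tile. In promoters the count was 36 of 122 (29.5%, 22.1% to 38.1%) against 8% of tiles. The other intergenic elements, which lie after genes or far in front of them, had 4 of 49 (8.16%, 3.22% to 19.2%), with a tile share of 5.89% inside the interval. In genes outside telomeric regions 31 of 384 elements were overlapped (8.07%, 5.75% to 11.2%), against 4.13% of tiles. The 3-tract segments also had their highest shares in telomeric regions, 26 of 81 (32.1%, 22.9% to 42.9%), and in promoters, 57 of 422 (13.5%). Their shares were 23 of 197 (11.7%) in other intergenic sequence, above that of elements, and 90 of 1694 (5.31%) in genes. Elements and tiles of telomeric regions both include repeated sequence, described below.

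Taking genes as a whole, 32 of 386 genic elements (8.29%) and 81 of 249 intergenic elements (32.5%) were overlapped, where tiles gave 4.1% and 7.64%. The odds ratio was 0.188 (95% interval 0.120 to 0.294, Fisher's exact test, two-sided p = 1.47e-14, adjusted p = 2.06e-13 over 14 tests by the Benjamini-Hochberg method). Among elements with no TAGGG within 100 bp the odds ratio was 0.539 and did not pass (exact p = 0.0903, adjusted p = 1). It was 0.284 more than 20000 bp from chromosome ends, 0.0445 for a summit within 200 bp and 0.0896 with loops of at most 12 bases, and passed in each.

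**Figure D1:**
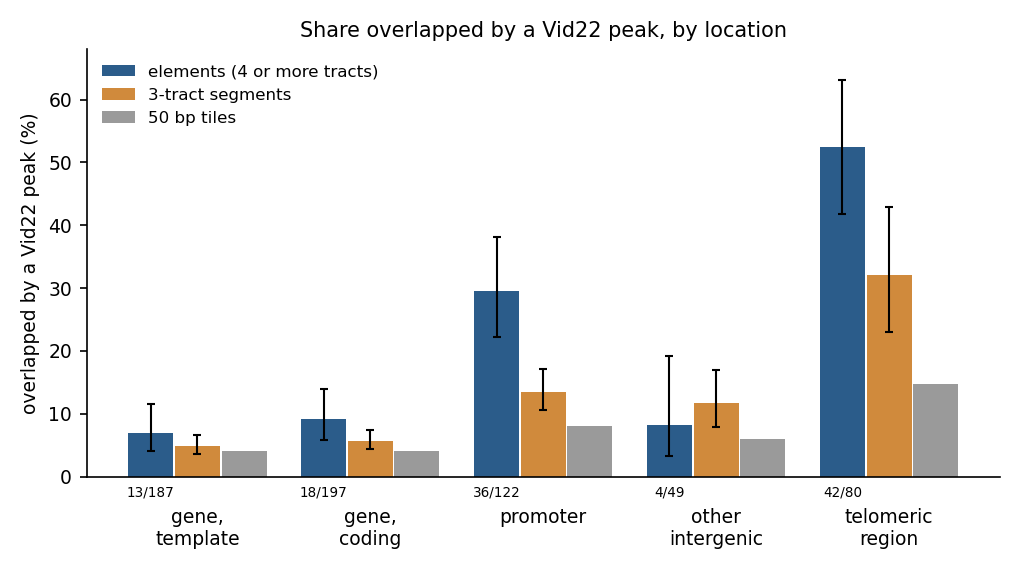
Share (%) of elements, 3-tract segments and 50 bp tiles that a Vid22 peak overlapped, by location, with 95% Wilson intervals on elements and segments and element counts under the bars. Both gene strands show the same tile share of 4.13%, and elements stand highest in telomeric regions (52.5%) and promoters (29.5%). Segments are also highest there (32.1% and 13.5%).

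Within genes the strand of the G tracts made no difference that the test could show. Of 188 elements on the template strand 14 were overlapped (7.45%, interval 4.49% to 12.1%), and of 198 on the coding strand 18 (9.09%, 5.83% to 13.9%). The odds ratio of template to coding was 0.805 with an interval of 0.388 to 1.67 (Fisher's exact test, two-sided p = 0.585, adjusted p = 0.585). The interval holds odds both lower and higher on the template strand. No element lay in genes on both strands.

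The strand was also compared in front of genes, continuing the strands of the gene upstream of its start. Elements of telomeric regions were kept in this comparison. Among the intergenic elements in front of exactly 1 gene start, 8 of 41 with the G tracts on the coding strand (19.5%) and 19 of 56 on the template strand (33.9%) were overlapped. The odds ratio of coding to template was 0.472 (0.183 to 1.22, Fisher's exact test, two-sided p = 0.169, adjusted p = 0.197). More than 20000 bp from chromosome ends the counts were 8 of 38 (21.1%) and 13 of 44 (29.5%). The odds ratio was 0.636 there (0.231 to 1.75, exact p = 0.452, adjusted p = 0.587). With loops of at most 12 bases the counts were 0 of 7 and 8 of 15, which passed (Fisher's exact test, two-sided p = 0.0225, adjusted p = 0.0350). The odds ratio is 0 there, and 0.0588 with 0.5 added to each cell, with an interval of 0.00285 to 1.21. This short-loop count was not limited to elements away from the ends. Promoter elements that served 2 divergent genes were overlapped in 15 of 38 cases (39.5%), and those with 1 gene start in 21 of 84 (25.0%). This last difference was not tested.

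Overlap inside genes was for the most part overlap with the flank of a peak that rose elsewhere. This was not particular to elements: of 1738 genic 3-tract segments 92 were overlapped and 17 had a summit within 200 bp. Of the 32 overlapped genic elements 7 lay within 200 bp of the summit, 25 had the summit outside the gene that holds them, and 23 had it outside every protein-coding gene. Their median distance to the summit was 768 bp, against 36 bp for the 81 overlapped intergenic elements, of which 72 lay within 200 bp. Outside telomeric regions, 1 of 187 template strand elements (0.535%) and 5 of 197 coding strand elements (2.54%) had a summit within 200 bp, against 33 of 122 in promoters and 37 of 80 in telomeric regions. Of 3-tract segments, 17 of 1738 in genes (0.978%) and 71 of 656 between genes (10.8%) had a summit this near. The shares of elements in the same 2 classes were 1.81% and 29.3%. The peaks over genic elements were also long, with a median length of 5421 bp on the template strand and 5090 bp on the coding strand, against 2628 bp in promoters and 887 bp in telomeric regions.

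TBF1 has an element on each side of this line, both under 1 peak with a fold enrichment of 6.31. The promoter element, centered at position -217 from the gene start, contains the summit. The element in the open reading frame, the 1 with loops of at most 4 bases printed above, lay near the edge of the peak, 514 bp from the summit. FRT2, POX1 and POM34 were under peaks with folds of 6.98, 6.98 and 6.95, the highest over any element, and their elements lay 688, 759 and 266 bp from the summit. The elements in CHS2 (chitin synthase), PTP1 (a tyrosine phosphatase) and KIP3 (a kinesin), all on the template strand, had folds of 6.82, 6.12 and 6.55 at 622, 882 and 2585 bp. On the coding strand MRPL16 (mitochondrial ribosome), APD1 and SPT8 (a SAGA subunit) had folds of 5.90, 5.48 and 5.16 at 564, 1035 and 1007 bp.

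The genic elements nearest a summit had mostly weaker peaks. The elements in PAC11 (dynein intermediate chain) and YPT32 (a Rab GTPase) contained a summit, with folds of 1.90 and 2.17. Those in BAP2 and AVT2, which transport amino acids, lay 2 and 197 bp from summits of 1.53-fold and 1.80-fold enrichment. RPR2, a subunit of RNase P, had 3.35-fold at 7 bp, and BBC1, an actin patch protein, had the 1 template strand element within 200 bp, at 145 bp from a summit of 5.98-fold. These 6 were named after their values were seen, and the remaining 1 lay in a telomeric region.

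**Figure D2:**
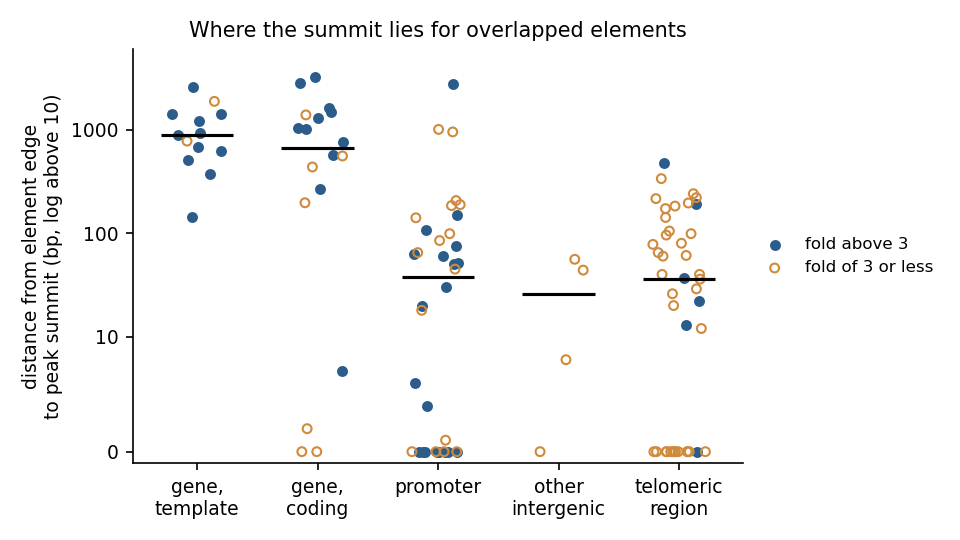
Distance (bp, linear to 10 and logarithmic above) from the edge of each overlapped element to the summit of its strongest peak, by location, with 0 for a summit inside the element, filled points for a fold above 3 and bars at the medians. Promoter, other intergenic and telomeric medians are 37.5, 26 and 36.5 bp, and those of the template and coding strands are 882 and 661.5 bp.

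In promoters the summits sat on or beside the elements, and many peaks were strong. Of the 36 overlapped promoter elements 12 contained the summit, and 20 had a peak with a fold above 3. The element of SKN7, which has 5 tracts and is centered at position -433 from the gene start, contained the summit of a 6.09-fold peak. The elements in front of TIP20 (6.62-fold), ZPR1, a zinc finger protein (5.94-fold), JHD2, a histone demethylase (5.86-fold), GIS3 (5.82-fold) and ACT1 (4.91-fold) contained their summits as well. PRB1 had its summit 6 bp away at 4.67-fold, YAK1, a protein kinase, 20 bp away at 5.89-fold, and RCF2, of the respiratory chain, 75 bp away at 4.16-fold. RPL16A, a ribosomal protein gene, was the exception among the strong peaks: its 7-tract element lay 2746 bp from the summit of a 6.45-fold peak. JHD2, GIS3, YAK1 and RCF2, like ACT1, PRB1 and GPD1, were chosen after their values were seen.

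Elements with more tracts were overlapped more often, and this held between genes but could not be shown within them. The counts were 55 of 450 with 4 tracts (12.2%, interval 9.51% to 15.6%), 18 of 105 with 5 tracts (17.1%, 11.1% to 25.5%) and 40 of 80 with 6 or more (50.0%, 39.3% to 60.7%). The difference of 37.8 percentage points between the last and the first class passed the Fisher-Freeman-Halton exact test (p = 1.26e-12, adjusted p = 8.86e-12). Longer elements have more bases to overlap, with a median of 50 bp at 4 tracts and 95 bp at 6 or more. The call was the same when the midpoint had to lie in the peak. The difference was 18.6 points more than 20000 bp from an end (exact p = 0.0152, adjusted p = 0.0396) and 18.4 points at a -log10 q of at least 20 (adjusted p = 0.000300).

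Between genes the counts were 31 of 145 (21.4%), 12 of 38 (31.6%) and 38 of 66 (57.6%), a difference of 36.2 points (exact p = 1.79e-06, adjusted p = 3.57e-06). Within genes they were 24 of 305 (7.87%), 6 of 67 (8.96%) and 2 of 14 (14.3%), and the test did not pass (exact p = 0.504, adjusted p = 0.543). Elements of 6 or more tracts are gathered at the chromosome ends: 46 of the 80 lie in telomeric regions. More than 20000 bp from an end, the difference between genes was 21.8 points and no longer passed (exact p = 0.104, adjusted p = 0.192). The same was so at a -log10 q of at least 20 (15.1 points, exact test, adjusted p = 0.0688) and without TAGGG within 100 bp (3.33 points, adjusted p = 1). In promoters alone 21 of 85, 7 of 20 and 8 of 17 elements were overlapped (24.7%, 35.0% and 47.1%), with intervals that overlap.

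**Figure D3:**
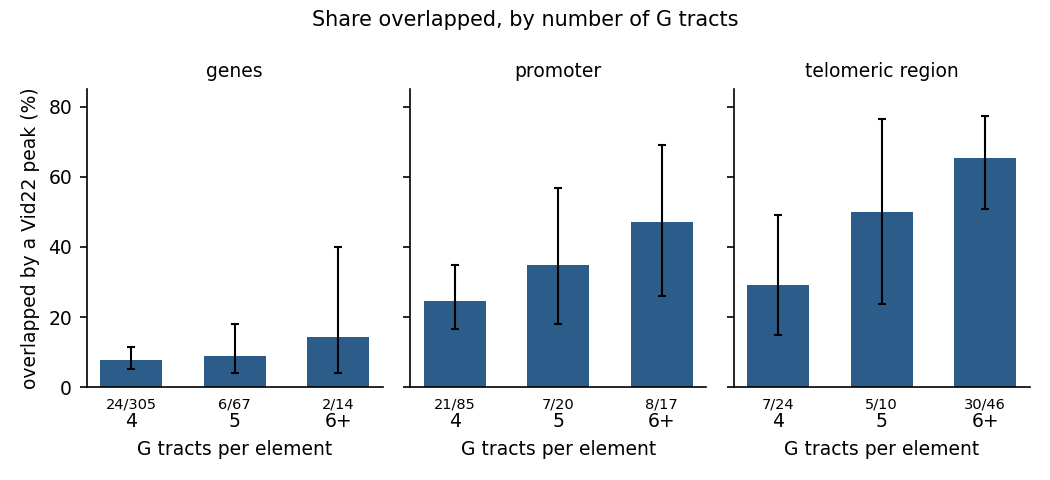
Share (%) of elements overlapped by a Vid22 peak, by number of G tracts, in genes, promoters and telomeric regions, with 95% Wilson intervals and counts under the bars. In telomeric regions the share goes from 29.2% at 4 tracts to 65.2% at 6 or more, and in genes from 7.87% to 14.3% with wide intervals.

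The 4 promoter elements with 9 or more tracts had weak peaks or none. The 12-tract element of GPD1 contained a summit of 1.77-fold, and the 11-tract element of MEO1 lay 189 bp from a summit of 1.73-fold. A 9-tract element in front of YJR115W was 141 bp from a summit of 1.85-fold. The 9-tract element in front of TSL1 (chrXIII:70361-70483), a trehalose synthase subunit, was not overlapped although all positions around it start a unique 50-mer. The promoter elements with 4 or 5 tracts included those of SKN7, TIP20, TBF1 and ACT1 named above. MEO1, YJR115W and TSL1 were chosen after their values were seen.

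No difference by the length of the loops could be shown. By their longest loop, 1 of 15 elements with at most 7 bases was overlapped (6.67%), 13 of 116 with 8 to 15 (11.2%), 39 of 211 with 16 to 20 (18.5%) and 60 of 293 with 21 to 25 (20.5%), and the exact test over the 4 classes did not pass (p = 0.104, adjusted p = 0.132). The 1 overlapped element of the first class is that in the open reading frame of TBF1. Those of UME6, ATO3 and PDR15, whose loops are at most 3, 2 and 7 bases long, were not overlapped by any peak used, and all their surrounding positions are unique. The small class allows a share of up to 29.8% by its Wilson interval.

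A different count looked for a core of 4 tracts with loops of at most 7 bases anywhere in an element. It was added after the values were seen. Such cores were present in 37 elements, of which 15 were overlapped (40.5%), against 98 of 598 others (16.4%), an odds ratio of 3.48 (1.74 to 6.94, Fisher's exact test, two-sided p = 0.000679, adjusted p = 0.00119). In telomeric regions 9 of the 12 elements with a core were overlapped, and elsewhere 6 of 25. More than 20000 bp from chromosome ends the odds ratio was 2.17 and did not pass (exact p = 0.124, adjusted p = 0.202). Nor did it pass without TAGGG within 100 bp (1.28, exact test, adjusted p = 1), with loops of at most 12 bases for all elements (1.64, adjusted p = 0.287) or at a -log10 q of at least 20 (2.19, adjusted p = 0.0927).

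Elements were overlapped more often than the 3-tract segments, of which 196 of 2394 (8.19%, 7.16% to 9.35%) met a peak. The odds ratio was 2.43 (1.89 to 3.12, Fisher's exact test, two-sided p = 2.58e-11, adjusted p = 1.21e-10). Segments are shorter, with a median of 33 bp against 54 bp for elements, and so have fewer bases to overlap. With the midpoint required in the peak the odds ratio was 2.39 and passed, while in genes it was 1.56 and did not. Between genes the shares were 32.5% for elements and 104 of 656 segments (15.9%), an odds ratio of 2.56 (1.83 to 3.59, exact p = 1.01e-07, adjusted p = 2.37e-07), which turned to 0.957 without TAGGG within 100 bp (adjusted p = 1). For a summit within 200 bp the odds ratio over all locations was 3.78. In genes they were 8.29% and 92 of 1738 (5.29%), with an odds ratio of 1.62 (1.06 to 2.46, exact p = 0.0301, adjusted p = 0.0421). The difference in genes was lost under 10 of the alternatives tried, among them a -log10 q of at least 10 (odds ratio 1.51, Fisher's exact test, adjusted p = 0.0926), all deposited peaks (1.45, adjusted p = 0.0969) and a summit within 200 bp (1.87, adjusted p = 0.252).

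Elements with a TAGGG site nearby were overlapped more often than those without. TAGGG was searched as these 5 letters on both strands within 100 bp of the element, and a site may share its GGG with a tract of the element. It was there for 257 of the 635 elements (40.5%), 31.8% of the 3-tract segments and 17.4% of tiles. Peaks overlapped 77 of the 257 elements with a site (30.0%) and 36 of the 378 without (9.52%), an odds ratio of 4.06 (2.63 to 6.28, Fisher's exact test, two-sided p = 8.51e-11, adjusted p = 2.98e-10). Of the 80 telomeric elements 62 had a site. More than 20000 bp from chromosome ends 38 of 194 elements with a site (19.6%) and 33 of 343 without (9.62%) were overlapped, an odds ratio of 2.29 (1.38 to 3.79, exact p = 0.00140, adjusted p = 0.00455). The odds ratio was 12.02 with loops of at most 12 bases and 6.90 for a summit within 200 bp, and passed in both. In promoters the shares were 26 of 53 (49.1%) and 10 of 69 (14.5%). In genes they were close on each strand, 6 of 71 and 7 of 116 on the template strand and 5 of 54 and 13 of 143 on the coding strand. By number of sites, genic elements had 20 of 259 (7.72%) at 0, 6 of 100 (6%) at 1 and 5 of 25 at 2 or more. The last share was 20% (8.86% to 39.1%). Genic 3-tract segments had 5.94%, 3.38% and 5.97%, and these differences were not tested.

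In promoters, elements and 3-tract segments alike had their highest share at 2 or more sites. Promoter elements with no site were overlapped in 10 of 69 cases (14.5%, 8.07% to 24.7%), those with 1 in 12 of 33 (36.4%, 22.2% to 53.4%) and those with 2 or more in 14 of 20 (70%, 48.1% to 85.5%). The 3-tract segments of promoters had 27 of 259 (10.4%), 5 of 124 (4.03%) and 25 of 39 (64.1%). At 2 or more sites the odds ratio of elements to segments was 1.31 (0.410 to 4.16, Fisher's exact test, two-sided p = 0.775, adjusted p = 0.775 over 6 tests), and with none it was 1.46 (0.668 to 3.18, exact p = 0.391, adjusted p = 0.469). At 1 site it was 13.6 (4.34 to 42.6, exact p = 3.49e-06, adjusted p = 2.09e-05). These 6 tests were added after the values were seen.

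Over all locations outside telomeric regions the pattern was similar. Elements had 33 of 360 (9.17%), 18 of 142 (12.7%) and 20 of 53 (37.7%) overlapped at 0, 1 and 2 or more sites, and segments 7.21%, 3.98% and 27.2%. The odds ratios were 1.30 (exact p = 0.224, adjusted p = 0.336), 3.50 (exact p = 0.000323, adjusted p = 0.000970) and 1.62 (exact p = 0.207, adjusted p = 0.336). SKN7, TBF1 and TIP20 have 2 sites at their promoter elements, JHD2 and GIS3 have 4, ACT1 and ZPR1 have 1, and PRB1 and RCF2 have none. The 6 promoter elements with 2 sites and no overlapping peak were in front of YCL048W-A, YGR117C, SAM35, SGA1, SEG2 and FRA1, all at unique positions. They fall outside the rules by which elements were named.

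**Figure D4:**
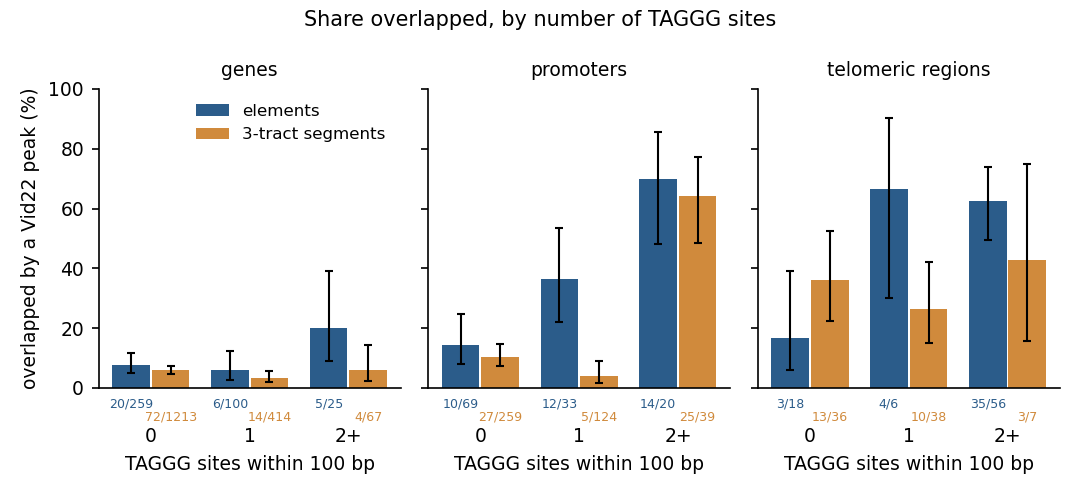
Share (%) of elements and of 3-tract segments overlapped by a Vid22 peak, by number of TAGGG sites within 100 bp, in genes, promoters and telomeric regions, with 95% Wilson intervals and counts under the bars. In promoters 70% of elements and 64.1% of segments with 2 or more sites were overlapped, and 14.5% and 10.4% of those with none.

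Among elements and segments with no TAGGG within 100 bp, several differences were not seen. Elements were overlapped in 9.52% and segments in 128 of 1632 cases (7.84%), an odds ratio of 1.24 (0.839 to 1.82, Fisher's exact test, two-sided p = 0.297, adjusted p = 1). The difference by tract number was 2.05 percentage points (exact p = 0.731, adjusted p = 1). These subsets hold fewer elements, and the intervals leave room for differences of moderate size. Among elements with a site and segments with a site, more than 20000 bp from the chromosome ends, the odds ratio was 2.86 (1.82 to 4.48, exact p = 1.35e-05).

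Telomeric regions held the elements with the most tracts. Of the 32 annotated regions 30 had an element and 22 had an overlapped element. All 80 elements had the G strand running toward the chromosome end, as the G-rich telomeric strand does. Their peaks were weaker than those of promoters, with a median fold over overlapped elements of 2.02 against 4.10, a difference that was not tested. The element with 41 tracts on the left end of chromosome III (chrIII:1-478) contained a summit of 1.43-fold and the 37-tract element on the right end of chromosome XIV (chrXIV:783933-784332) 1 of 2.02-fold. The 27-tract element of chromosome VI (chrVI:4685-5002) contained the summit with the highest fold, 3.44. The 22-tract element of chromosome XII (chrXII:11204-11468) and the 21-tract element of chromosome VIII printed above had folds of 1.62 and 1.68. The short 7-tract element of chromosome XII, also printed, lay 192 bp from a summit of 3.39-fold and was chosen after its values were seen.

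Whether a telomeric element was overlapped went with how unique its surroundings are in the genome. Reads that aligned equally well to several places were discarded in the authors' processing, so a repeated sequence can carry few reads. Positions that start a unique 50-mer made up a median of 41.7% of the regions with an overlapped element (range 7.54% to 95.01%) and 1.74% of the 8 regions with elements and no overlap (0.103% to 28.2%). Of the 38 telomeric elements without a peak, 37 had fewer than 50% unique positions within 200 bp, against 5 of the 42 with a peak. The overlapped elements also had more tracts, a median of 7.5 against 5, and a TAGGG inside in 30 of 42 cases against 21 of 38. The part of each of these in the overlap was not tested.

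**Figure D5:**
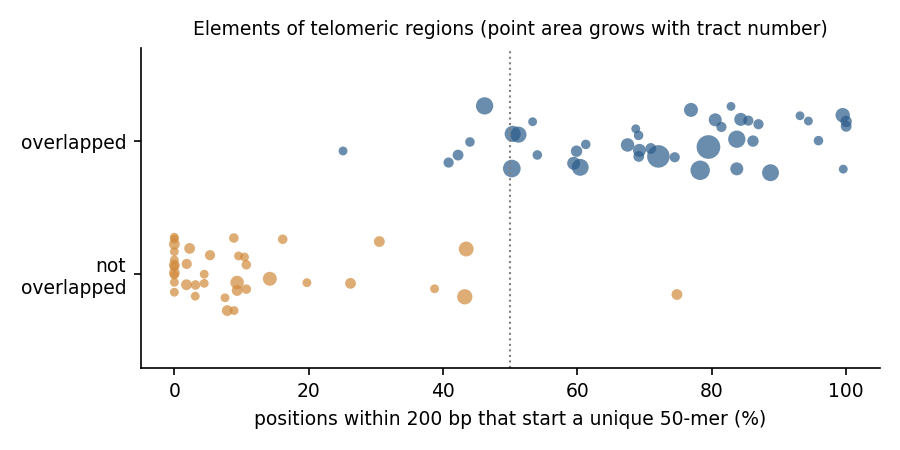
Percent of positions within 200 bp that start a unique 50-mer, for the 42 overlapped and the 38 other elements of telomeric regions, with point area growing with the number of tracts, a vertical scatter without meaning and a dotted line at 50%. Of the elements without a peak 37 lie left of the line, and of those with a peak 5 do.

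By distance, 42 of the 98 elements within 20000 bp of a chromosome end were overlapped (42.9%) and 71 of the other 537 (13.2%), an odds ratio of 4.92 (3.07 to 7.89, Fisher's exact test, two-sided p = 1.28e-10, adjusted p = 3.59e-10). Among elements with at least 50% unique positions the counts were 37 of 47 (78.7%) and 71 of 519 (13.7%), an odds ratio of 23.4 (11.1 to 49.0, exact p = 9.15e-21, adjusted p = 1.28e-19). With 1 element per cluster (neighbors less than 1000 bp apart) they were 23 of 58 (39.7%) and 65 of 485 (13.4%). The odds ratio was then 4.25 (2.36 to 7.64, exact p = 4.03e-06, adjusted p = 1.13e-05). Without TAGGG within 100 bp the counts were 3 of 35 and 33 of 343, and the odds ratio turned to 0.881 (0.256 to 3.03, exact p = 1, adjusted p = 1). The TAGGG and uniqueness filters were not combined, and elements near the ends without a site include repeated sequence that can carry few reads. Telomeric 3-tract segments were overlapped in 13 of 36 cases (36.1%) with no site, 10 of 38 (26.3%) with 1 and 3 of 7 (42.9%) with 2 or more. The odds ratio of near to far elements was 2.86 at a -log10 q of at least 20 and 14.0 with loops of at most 12 bases, and passed in both. Tiles near the ends gave 5.28%, and intergenic tiles away from the ends 7.49%. All 42 are the elements of the telomeric regions counted above. They lie under 23 peaks, so they are not independent.

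Elements were last compared by the strand on which a replication fork would meet them. The direction was taken from the nearest annotated origin, with no fork data. Elements with the G tracts on the lagging strand template were overlapped in 76 of 340 cases (22.4%) and those on the leading strand template in 37 of 295 (12.5%), an odds ratio of 2.01 (1.31 to 3.08, Fisher's exact test, two-sided p = 0.00125, adjusted p = 0.00195). Of the 98 elements near chromosome ends 86 are on the lagging template. Away from the ends the odds ratio was 1.17 (0.710 to 1.93, exact p = 0.610, adjusted p = 0.633), and with 1 element taken per cluster of neighbors it was 1.50 (exact p = 0.103, adjusted p = 0.131). It was 1.74 at a -log10 q of at least 20 (exact test, adjusted p = 0.0688), and without TAGGG within 100 bp it turned to 0.910 (16 of 176 against 20 of 202, adjusted p = 1). With loops of at most 12 bases it was 5.20 and passed (exact p = 0.000155, adjusted p = 0.000311).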

How the data were processed

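Vid22-13Myc and wild type (no tag) chromatin was sequenced with 50 bp reads. According to the methods, the authors aligned reads with bowtie, keeping single best alignments, removed PCR duplicates with samtools and called peaks with MACS2 against the control. Versions are not given in the sources used here. Their deposited list gives for each peak an integer score, which is the -log10 q multiplied by 10 and truncated. It also gives, as the authors deposited them, the summit's fold over the control (a ratio), its -log10 p-value and its -log10 q-value. Peak positions are on sacCer3. The control enters only through the peak calling.

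Elements, TAGGG sites and unique 50-mers were searched in the RefSeq R64 sequence, and genes, telomeric regions and origins were taken from its annotation. Runs of at least 7 G count as more than 1 tract. Shares have 95% Wilson intervals and odds ratios Woolf intervals, with 0.5 added to each cell where a count was 0. Class counts were compared with exact tests (own code, Python 3.11.15, numpy 2.4.6, tested on simulated data), adjusted over 14 tests. Classes, lists and tests were chosen with earlier results of these data known. Elements were named by rule: SKN7, overlapped elements with loops of at most 7 bases, the 10 highest folds, the 5 highest folds per gene-strand class, the 5 with most tracts, and 3 short-loop elements without a peak. Others are marked in the text. Alternatives changed the q threshold, the overlap rule, the loops and the elements compared.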

Additional observations from a re-analysis of the deposited data

How the results depend on the processing

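Of 162 values recomputed under other settings, 132 kept their direction and their side of the adjusted threshold of 0.05, 23 no longer passed, 6 changed direction and 1 newly passed. Odds ratios of elements to 3-tract segments in genes that no longer passed were 1.45 with all deposited peaks, 1.51 at a -log10 q of at least 10, 1.60 at 20, 1.87 for a summit within 200 bp, 1.57 away from chromosome ends, 1.55 with at least 50% unique positions, 1.25 with loops of at most 12, 1.56 for the midpoint in a peak, 1.35 without TAGGG, and 2.39 with TAGGG and away from the ends. With the threshold on -log10 q at 20, the tract difference between genes (15.1 points), the replication strand (1.74) and the short-loop core (2.19) no longer passed. Away from the ends the same held for the tract difference between genes (21.8 points), the replication strand (1.17) and the core (2.17), and with 1 element per cluster for the replication strand (1.50). With loops of at most 12 bases the core was at 1.64, and promoter orientation newly passed at 0.0588 (0.5 added to each cell, since 1 count was 0). Without TAGGG, genic against intergenic (0.539), tract number overall (2.05 points) and between genes (3.33 points), elements against segments (1.24) and the core (1.28) no longer passed. The directions that changed, none of which passed, were the tract difference in genes for a summit within 200 bp (-1.97 points), with short loops (-9.30 points) and without TAGGG (-7.21 points), and, without TAGGG, elements against segments between genes (0.957), the chromosome end (0.881) and the replication strand (0.910). The settings on TAGGG, on the midpoint and the short-loop core were added after the values were seen. The cause of these changes was not tested, although the subsets hold fewer elements. The chromosome end has no value away from the ends. No paired analysis was possible because each condition has 1 library. The tests describe 1 peak list from pooled experiments, and give no measure of how the peaks vary between cultures.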
